A study of Mus musculus with 6 samples.

Results

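AP-1 is the family of basic leucine zipper (bZIP) transcription factors built around the FOS and JUN proteins, and its members here are the 10 genes Fos, Fosb, Fosl1, Fosl2, Jun, Junb, Jund, Batf3, Jdp2 and Maff. They were taken as every non-control probe of the array whose gene name is on that list. This gave 11 of 55681 probes and 10 of 35527 gene names, with 1 probe per gene except Fosl2, which has 2. The genes were selected on measured values, the difference between GapmeR Ntep and GapmeR control arrays, so their values in that comparison are a description, and where calls of them are counted below nothing is read from the count as a test. Ntep is a long noncoding RNA of the mouse, and a GapmeR is an antisense oligonucleotide that directs cleavage of the RNA it pairs with. The cells were 3T3, an established line of mouse embryonic fibroblasts, grown with serum and transfected for 48 h with 50 nM of either GapmeR Ntep, a single antisense sequence, or a negative control GapmeR. Total RNA from 3 independent experiments was hybridised to 1-colour Agilent arrays, giving 3 GapmeR Ntep and 3 GapmeR control arrays. Arrays with the same number come from the same experiment. The study compared them to learn which transcripts change when Ntep is silenced in fibroblasts.

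AP-1 binds DNA as a dimer. FOS proteins (Fos, Fosb, Fosl1, Fosl2) pair mainly with a JUN partner, JUN proteins (Jun, Junb, Jund) pair with FOS proteins or with each other, and Batf3, Jdp2 and the small MAF protein Maff are bZIP relatives without a strong activation domain of their own. In fibroblasts Fos, Fosb, Jun and Junb are known as immediate early genes that serum and stress kinases switch on within minutes, Fosl1 and Fosl2 follow later and are themselves AP-1 targets, and the dimers drive genes of proliferation, migration and matrix breakdown.

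Values are array signals, that is background-subtracted brightness of a probe after quantile normalization, with values under 20 set to 20. Signals of different probes have no common scale, so no probe's level is set against another's, and the sums over marker lists given below follow their brightest probes. A log2 difference is GapmeR Ntep minus GapmeR control, and its SD is over the 3 experiments. On the 6 arrays 43.7% to 53.3% of probes were well above background and none was saturated, and arrays correlated with the others of their own group at a mean r of 0.978 to 0.987 over log2 signals. GapmeR Ntep array 2 was as near to the control arrays (mean r 0.983) as to its own group (0.982). The probe for Ntep, listed as A630089N07Rik, read 472, 91.5 and 226 on the GapmeR Ntep arrays and 271, 272 and 361 on the controls. The signal of this 1 probe was thus lower in experiments 2 and 3 (by -1.57 and -0.68 on the log2 scale). It was higher in experiment 1 (0.80), which goes against the label of that array. Its change over all arrays was not called (log2 -0.48, SE 0.58, limma, adjusted p = 0.632). The paper reports efficient silencing of Ntep with this GapmeR by qPCR, without saying whether the RNA was that of the arrays. The 6 arrays are therefore named by their labels throughout. Of 10 fibroblast markers 9 to 10 were well above background, with a summed signal of 555718 to 737409 on GapmeR Ntep and 808198 to 891263 on control arrays and a median log2 difference of -0.59 over the list. Macrophage markers summed to 33573 to 62889 against 16657 to 21544, with 4 to 5 of 7 above background. The defining Ptprc and Adgre1 were at background on every array, while Cd68 rose by its brightest probe (log2 1.21, limma, adjusted p = 0.0287). Csf1r (3.19, adjusted p = 0.151) and Itgam (1.26, adjusted p = 0.0881) were higher in each experiment without passing. Another tested probe differed by 0.68 for Cd68, 0.44 for Csf1r and -0.03 for Itgam, without passing. In the other direction, Aif1 was lower in each experiment without passing (-1.28, adjusted p = 0.276), and Lyz2 differed by -0.18 at a low signal. Epithelial markers summed to 3358 to 7646 against 3028 to 3958, with 3 to 6 of 6 above background and a median log2 difference of 0.50. Of the 6, 3 were higher in each experiment without passing, among them Krt18 (1.56) and Krt14 (1.39). Krt8 (0.20) and Epcam (-0.02) changed direction between experiments. Endothelial markers summed to 817 to 972 against 773 to 994, with 3 of 5 above background and Cdh5 and Tek at background. The median of the 3 tested was 0.38, with Kdr (0.41) and Pecam1 (0.38) higher in each experiment and Vwf at -1.08 (another probe -1.66), none of them passing. The part of these marker shifts in the AP-1 values was not tested, and fewer cells of a kind and less RNA per cell cannot be told apart in RNA from whole cultures.

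The promoters of Fos, Fosb, Jun and Maff are shown because Fosb, Jun and Maff are among the members with the largest differences and Fos is the founding member whose own difference rests on an outlying spot. Each is the 250 bases before the annotated start in RefSeq on GRCm38.p6, 5' to 3' on the gene's strand. Capitals mark the letters TGACG, the core of a cAMP response element, or an 8-letter element TGACNTCA, of which TGACGTCA is the full palindrome, found on either strand. Fosl1 had no entry in the promoter table.

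Fos, chr12:85473640-85473889, plus strand: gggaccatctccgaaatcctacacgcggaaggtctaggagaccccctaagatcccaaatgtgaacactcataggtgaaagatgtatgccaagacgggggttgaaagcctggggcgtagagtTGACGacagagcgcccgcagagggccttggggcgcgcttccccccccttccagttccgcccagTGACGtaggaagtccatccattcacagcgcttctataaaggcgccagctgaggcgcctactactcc
Fosb, chr7:19310046-19310295, minus strand: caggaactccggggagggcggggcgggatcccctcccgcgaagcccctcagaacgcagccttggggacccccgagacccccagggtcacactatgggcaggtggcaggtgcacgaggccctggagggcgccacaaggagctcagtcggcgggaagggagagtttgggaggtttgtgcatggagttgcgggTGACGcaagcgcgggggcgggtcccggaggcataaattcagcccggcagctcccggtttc
Jun, chr4:95052223-95052472, minus strand: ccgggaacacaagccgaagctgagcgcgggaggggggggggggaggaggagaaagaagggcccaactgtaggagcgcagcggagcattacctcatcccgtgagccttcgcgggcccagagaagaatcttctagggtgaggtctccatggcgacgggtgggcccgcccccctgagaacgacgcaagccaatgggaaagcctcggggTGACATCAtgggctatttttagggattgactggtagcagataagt
Maff, chr15:79347270-79347519, plus strand: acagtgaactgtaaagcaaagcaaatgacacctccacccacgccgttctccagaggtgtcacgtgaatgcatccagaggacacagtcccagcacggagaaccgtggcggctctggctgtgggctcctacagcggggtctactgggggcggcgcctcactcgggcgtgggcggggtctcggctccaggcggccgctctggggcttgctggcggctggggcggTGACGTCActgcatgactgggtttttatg

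The Fos promoter holds TGACG at positions -129 and -66 from the start and the Fosb promoter at -60. The Jun promoter holds TGACATCA at -45, and this Maff promoter holds TGACGTCA at -29, which contains TGACG on both strands. In all, TGACG stood in 6 of 13 promoters of the 9 genes with an entry (Fos, Fosb, Junb, and 1 start of Jdp2 and 2 of Maff), against 17.8% of 32851 promoters of the same length. TGACNTCA stood in 3 of the 13 (Jun and 2 starts of Maff) against 7.49%, and TGACGTCA in 1 against 1.55%. The AP-1 element in the spelling TGANTCA was in 0 of the 13 windows against 6.75%, and the CArG box bound by serum response factor was in 0 against 1.47%. For both, sites beyond the 250 bases or of another spelling, such as the TGACATCA of Jun, were not counted. All these counts are matches of letters in a window of fixed length and say nothing of binding or of sites elsewhere.

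Across the family, signals were higher with GapmeR Ntep for most members, and no member was lower in all experiments. The largest log2 differences were those of Fosl1 (2.66), Fosb (2.46), Jun (1.91) and Maff (1.88). A middle group held the brighter Fosl2 probe (0.89), Batf3 (0.62), Jund (0.50), the dim Fosl2 probe (0.39), Jdp2 (0.38) and Junb (0.36), and Fos read 1.67 with all spots but 0.43 with outlying spots left out. Of the 11 probes, 9 were higher in each of the 3 experiments, against 32.4% of 30990 tested probes, and Fos and Jdp2 changed direction between experiments. The groups did not overlap for 7 probes (Fosb, Fosl1, Jun, Junb, Jund, Batf3 and Maff, all higher), against 32.1% of all tested probes in either direction and 17.0% for higher. By limma's adjusted p under 0.05, 2 of the 11 were called (Fosb and Jun, both higher), against a background of 5.30% in either direction and 2.09% for higher, and 4 were called with experiments as blocks (Fosb, Fosl1, Jun and Maff), against 13.8%. By a fold change of at least 2 with an unadjusted p under 0.01, 3 were called, against 8.13%. The median log2 difference was 0.89 over the 11 probes and 0.06 over all tested probes. Since this contrast chose the list, the counts are a description and nothing is read from them.

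**Figure D1:**
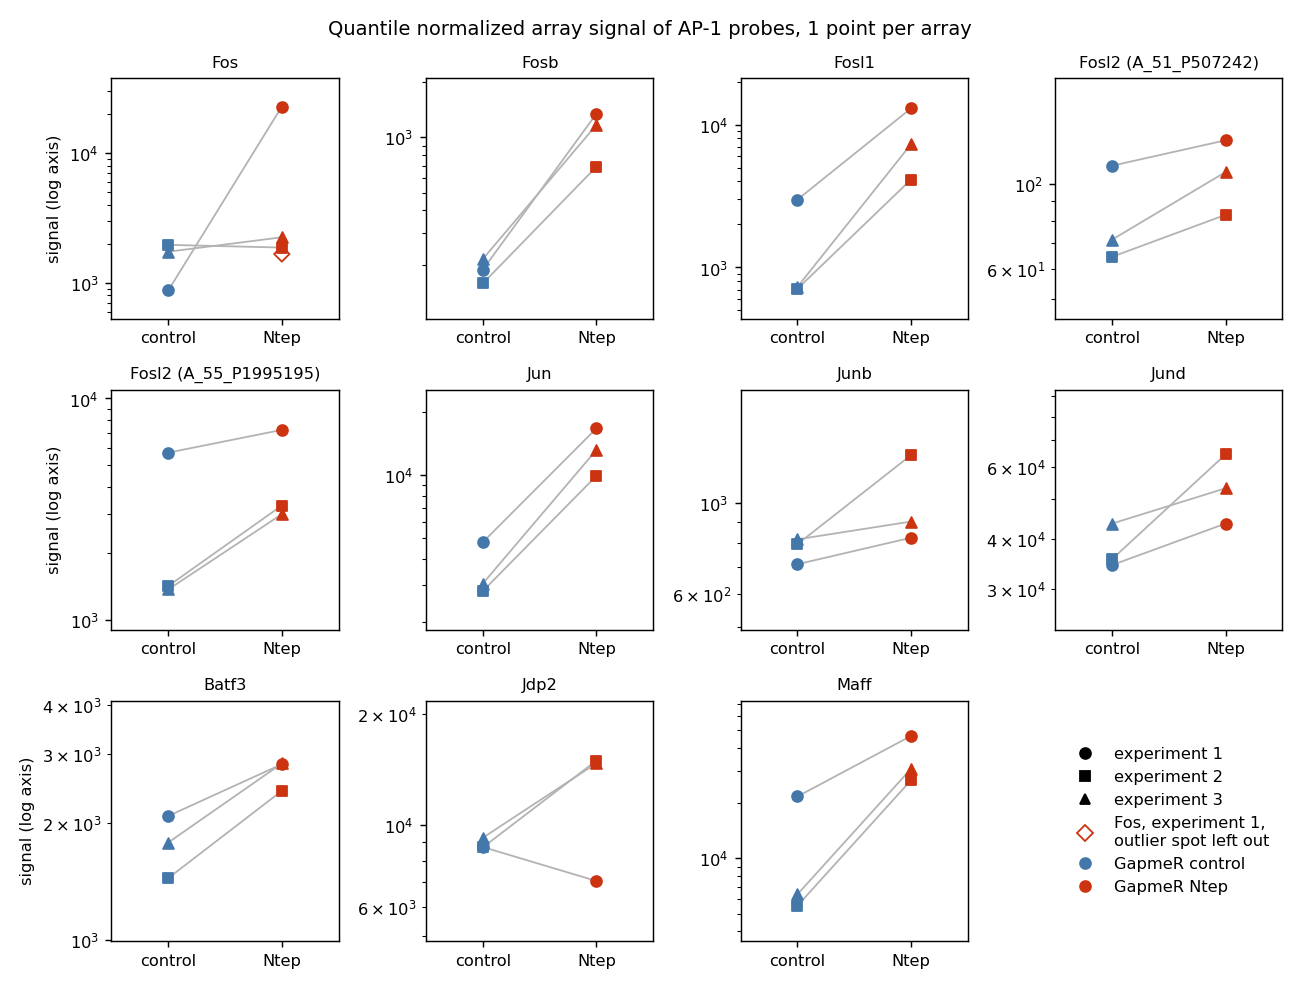
Signal of each AP-1 probe on the 6 arrays, on log axes that differ between panels, with lines joining the GapmeR control (blue) and GapmeR Ntep (red) array of the same experiment. The lines of Fosb, Fosl1, Jun and Maff run upward in every experiment, and the single high Fos point (22861) falls to 1668 (open diamond) once its outlying spot is left out.

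Fos encodes c-FOS, the first FOS protein to be induced by serum. Its probe (A_52_P262219, chromosome 12, 86817900 to 86817959 on the plus strand of mm9) is printed as 10 spots on each array, unlike the other members with 1 spot. With all spots averaged, Fos read 22861, 1871 and 2245 on the GapmeR Ntep arrays of experiments 1, 2 and 3, and 873, 1963 and 1738 on the control arrays. The high value belonged to 1 array, and the groups overlapped in the other experiments. Differences within experiments were 4.71, -0.07 and 0.37 on the log2 scale, a mean of 1.67 ± 2.64 (SD, n = 3).

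That value of experiment 1 came from 1 spot. On GapmeR Ntep array 1, before normalization, the brightest of the 10 Fos spots read 203522, the lowest 1285 and their median 1383. The scanner software had marked that spot as an outlier. The coefficient of variation among the 10 spots was 296% on this array and 2.76% to 16.1% on the other 5. On GapmeR Ntep array 3 the spot marked as an outlier lay below the others, at 1199 against a median of 2246. In all, 4 of 60 Fos spots were marked over the 6 arrays, and 0 spots of any other member.

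With the marked spots left out, Fos read 1668, 1866 and 2361 with GapmeR Ntep and 878, 1958 and 1740 with control. The means were 1965 ± 357 and 1525 ± 571 (SD, n = 3 each), and the groups overlapped. The log2 difference was then 0.43 ± 0.50, with 0.93, -0.07 and 0.44 in the 3 experiments. Experiment 1 remained the largest of these, since its control array had the lowest Fos signal of all 6. The median of the spots gave 0.43 (0.93, -0.07 and 0.42), and the signals the authors had normalized also gave 0.43, with 1643 on GapmeR Ntep array 1. The 26.2-fold difference of Fos in experiment 1 is thus a value of all spots averaged, and on the log2 scale the other 3 treatments of the spots gave 0.92 to 0.93 in place of 4.71.

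**Figure D2:**
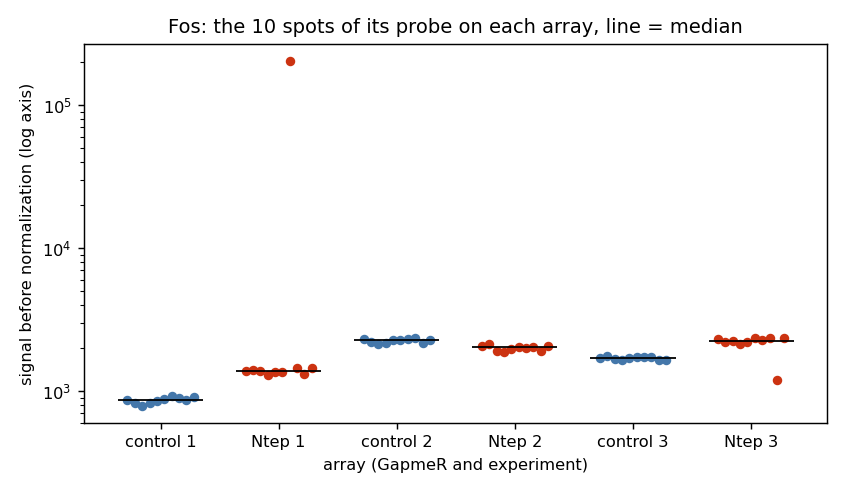
Signal of each of the 10 Fos spots on the 6 arrays before normalization, on a log axis, with GapmeR control in blue, GapmeR Ntep in red and the median as a black line. The spots of an array lie close together except 1 on Ntep array 1, at 203522 against a median of 1383, and 1 low spot on Ntep array 3, at 1199.

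Fosb, another immediate early partner of JUN proteins, had the steadiest large difference among the FOS genes. Its signals (probe A_55_P2113051, chromosome 7, 19888168 to 19888227, minus strand) were 1347, 692 and 1170.5 with GapmeR Ntep and 190.0, 159.7 and 217 with control. Every GapmeR Ntep array lay above every control array, and the control arrays stayed within a narrow range. The means were 1069.7 ± 339 and 189 ± 28.7 (SD, n = 3 each), and the log2 difference was 2.46 ± 0.36, with 2.83, 2.12 and 2.43 by experiment. Its size depended on the background correction, falling to 1.82 under normexp.

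Fosl1 encodes FRA1, a late FOS protein linked to migration. Signals of its probe (A_51_P308796, chromosome 19, 5455496 to 5455555, plus strand) were 12988, 4126 and 7293 with GapmeR Ntep and 2986, 709.8 and 732 with control. The groups did not overlap, although control array 1 stood far above the other controls. The means were 8135 ± 4491 and 1476 ± 1308, and the log2 difference was 2.66 ± 0.61, the largest of the family, with 2.12, 2.54 and 3.32 by experiment.

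Fosl2, encoding FRA2, has 2 probes on chromosome 5 of mm9, both on the plus strand. The brighter (A_55_P1995195, 32460076 to 32460135) read 7211, 3282 and 2999 with GapmeR Ntep and 5689.7, 1421 and 1371 with control. GapmeR Ntep was higher within each experiment, but control array 1 exceeded GapmeR Ntep arrays 2 and 3, so the groups overlapped. Its log2 difference was 0.89 ± 0.48, with 0.34, 1.21 and 1.13 by experiment. The other probe (A_51_P507242, 32455088 to 32455147) was dim, well above background on 2 GapmeR Ntep arrays and 1 control array, and read 129.9, 83.0 and 107 against 111, 64.5 and 71.5. That gave 0.39 ± 0.18, in the same direction in all 3 experiments and with overlapping groups, and 0.08 under normexp.

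Jun encodes c-JUN, the main JUN partner of FOS proteins and the target of the JNK kinases. Its signals (A_55_P2158990, chromosome 4, 94716928 to 94716987, minus strand) were 16715, 9931 and 13195 with GapmeR Ntep and 4797, 2806 and 3046 with control. All GapmeR Ntep arrays lay above all control arrays, and experiment 1 was the highest in both groups. The means were 13280.2 ± 3393 and 3549.8 ± 1087, and the log2 difference of 1.91 ± 0.18 varied little between experiments (1.80, 1.82 and 2.11).

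The other JUN genes differed less. Junb, an immediate early gene whose protein can restrain c-JUN, read 824, 1309 and 902 with GapmeR Ntep and 710.3, 795 and 817 with control (A_55_P2011106, chromosome 8, 87501881 to 87501940, minus strand). The groups touched without overlapping, since GapmeR Ntep array 1 was only just above the highest control. The log2 difference was 0.36 ± 0.31, with 0.21, 0.72 and 0.14 by experiment. Jund, which resting fibroblasts express steadily, read 43611, 64616 and 53296 with GapmeR Ntep and 34452, 35629 and 43595 with control (A_51_P357744, chromosome 8, 73224436 to 73224495, plus strand). The lowest GapmeR Ntep array and the highest control array were almost equal. The log2 difference was 0.50 ± 0.31, with 0.34, 0.86 and 0.29 by experiment, so for both genes experiment 2 gave the largest value.

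Batf3, a bZIP protein that pairs with JUN proteins and is best known from dendritic cells, read 2824, 2413 and 2836 with GapmeR Ntep and 2081, 1442 and 1779 with control (A_51_P419286, chromosome 1, 192932528 to 192932587, plus strand). The groups did not overlap, and the log2 difference of 0.62 ± 0.16 was small and even, with 0.44, 0.74 and 0.67 by experiment. Jdp2, a JUN partner that represses AP-1 sites, read 7046, 14942 and 14702 with GapmeR Ntep and 8711, 8695 and 9233 with control (A_51_P254646, chromosome 12, 86980657 to 86980716, plus strand). Its control arrays agreed closely (8879.6 ± 306), whereas GapmeR Ntep array 1 lay below all of them and GapmeR Ntep arrays 2 and 3 above. The log2 difference was -0.31 in experiment 1 and 0.78 and 0.67 in the others, a mean of 0.38 ± 0.60.

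Maff, a small MAF protein that pairs with CNC factors and itself, had the largest difference outside the FOS and JUN genes. Its signals (A_52_P608322, chromosome 15, 79189442 to 79189501, plus strand) were 46648, 26744 and 30875 with GapmeR Ntep and 21794, 5520.1 and 6371 with control. The groups did not overlap, and control array 1 was well above control arrays 2 and 3. The means were 34756 ± 10504 and 11228 ± 9159.8, and the log2 difference was 1.88 ± 0.68, with 1.10 in experiment 1 and 2.28 in each of the others.

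**Figure D3:**
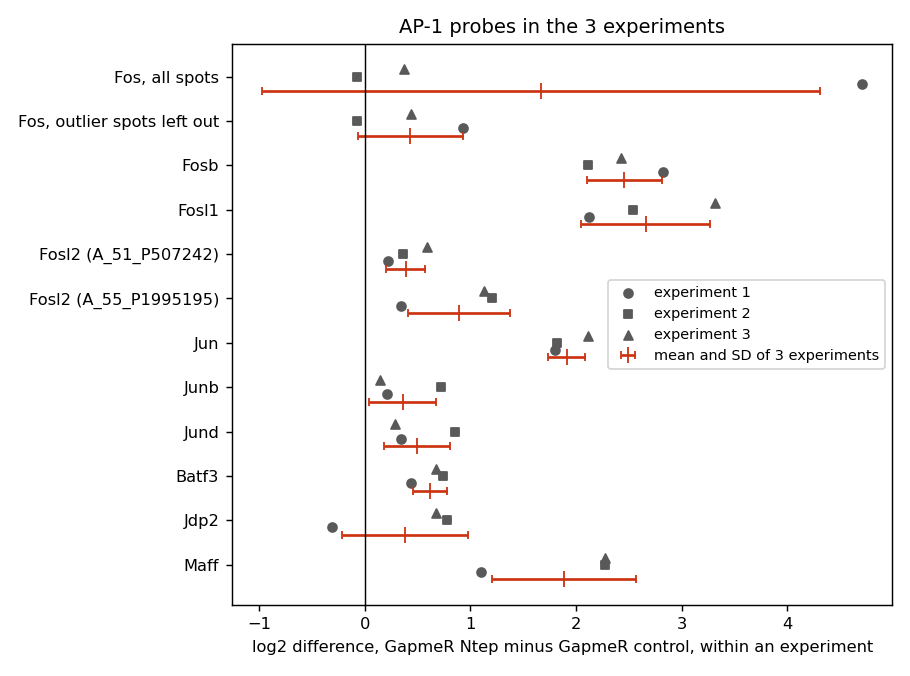
Log2 difference between the GapmeR Ntep and GapmeR control array of each experiment for every AP-1 probe (symbols), with the mean and SD of the 3 experiments in red, and Fos drawn with all spots and with outlying spots left out. Fosb, Fosl1, Jun and Maff lie above 1 in all experiments, and the mean of Fos falls from 1.67 to 0.43 between its 2 rows.

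The members also varied between experiments within a group. The list was chosen on the difference between groups, which is computed from the same signals, so these values are a description too. In the GapmeR control group, array 1 was at least 2-fold above both other control arrays for 3 of the 11 probes, namely Fosl1 (4.14-fold over the mean of the other log2 signals), the bright Fosl2 probe (4.08-fold) and Maff (3.67-fold). The share of all tested probes for which this held was 4.89%. GapmeR Ntep array 1 was also the highest of its group for these 3, at 2.37-fold, 2.30-fold and 1.62-fold, a pattern found at 3.92% of all tested probes. Jun was higher in experiment 1 in both groups but by less, at 1.64-fold and 1.46-fold. In the opposite direction, Fos was 2.12-fold lower on control array 1 and Jdp2 was 2.10-fold lower on GapmeR Ntep array 1 than in the other experiments. Fosb hardly differed between control arrays (1.02-fold). With 1 array per experiment and group, these differences had no replicate and were not tested. The differences of Fosl1, Maff and the bright Fosl2 probe between GapmeRs were smallest in experiment 1, the experiment with the highest control signals. Each difference subtracts the control signal, so nothing is read from this.

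**Figure D4:**
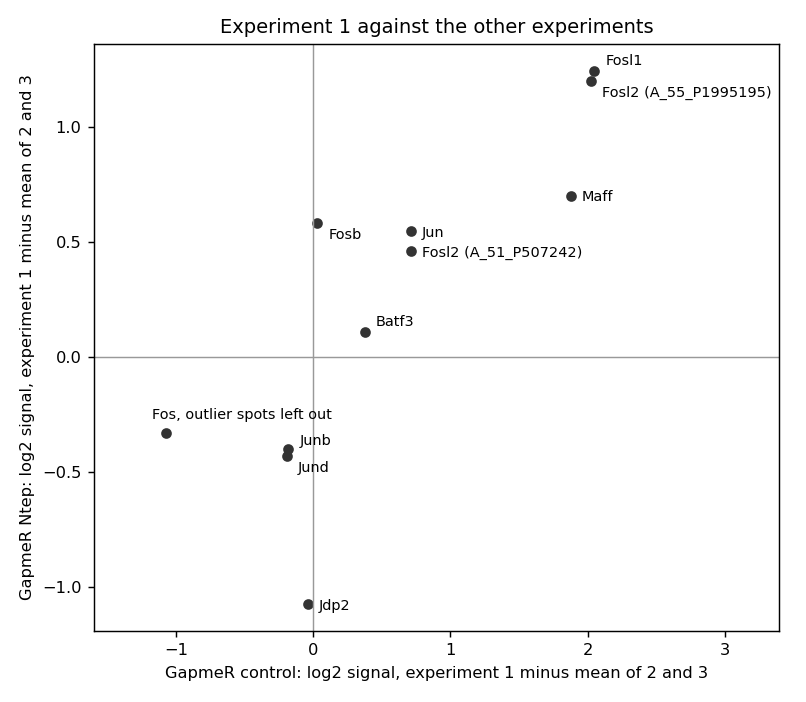
Log2 signal of experiment 1 minus the mean of experiments 2 and 3 for each AP-1 probe, on the control arrays (horizontal axis) and the GapmeR Ntep arrays (vertical axis). Fosl1, the bright Fosl2 probe and Maff lie at the upper right, higher in experiment 1 with both GapmeRs, while Jdp2 is low only on its GapmeR Ntep array.

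Probes whose log2 signals followed a member most closely over the 6 arrays were sought among 22649 tested probes well above background on all arrays. Nearest to Fosb were Lsm11 (Pearson r 0.999), Nsl1 (0.999) and Mrps30 (0.998), nearest to Fosl1 were Gpn2, Gm5943 and Prkx (each 0.998), and nearest to Jun were Taf3 (0.999), Ilf2 (0.998) and Ube2g2 (0.998). Many probes came close, with r over 0.95 for 707 probes with Fosb, 1148 with Fosl1 and 1170 with Jun, but for 42 with Fos. With all spots averaged, Fos was nearest to Trappc4 (0.992), Mfap1a (0.991) and Srsf11 (0.986). Once marked spots were left out, none of these remained among its nearest 3, which were Camkk1 (0.995), Gm10778 (0.986) and Pms2 (0.984). The 6 points share arrays and the contrast between GapmeRs, so these values describe the arrays alone.

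The other bZIP genes, which AP-1 proteins can pair or compete with, moved in both directions. Of 19 listed, all were on the array and 16 were tested by their brightest probe, of which 1 rose (Crem) and 1 fell (Batf2) by limma's adjusted p, against 1.99% and 3.18% of 22078 genes. Their median log2 difference was 0.15, against 0.06 over all genes. Batf2, a BATF relative known from interferon responses, fell to 298, 926 and 804 from 5204, 7972 and 5322 (log2 -3.32, SE 0.47, adjusted p = 0.0284). This contrasts in direction with Batf3, whose signal was higher in each experiment. Crem, which binds cAMP response elements, read 984, 527 and 727 against 329.9, 268 and 255 (log2 1.35, SE 0.27, adjusted p = 0.0480), whereas of its other 2 probes 1 differed by 0.12 and 1 was too dim to be tested. With experiments as blocks 4 of the 16 were called, against 13.9% of all genes, adding Atf3 and Mafk, both named after their values were seen. Atf3, a stress-induced partner of JUN, read 17006, 9673 and 11774 against 8733, 4294 and 3929 (log2 1.24, adjusted p = 0.115, blocked 0.0360), and Mafk, a small MAF like Maff, differed by 0.85 (adjusted p = 0.0978, blocked 0.0477). Atf2, the usual partner of c-JUN at such elements, read 0.02 lower by its brightest probe (log2 -0.02, adjusted p = 0.938).

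The kinases and serum response factors that switch AP-1 genes on showed 2 called changes at the RNA level. Of 37 listed, 36 were on the array by name and tested, 1 rose (2.78% against 1.99% of all genes) and 1 fell (2.78% against 3.18%), and the median log2 difference was 0.01. Nras, a RAS protein upstream of ERK, rose by its brightest probe from 17842, 14420.3 and 13292 to 32213, 27669 and 32437 (log2 1.03, SE 0.19, adjusted p = 0.0398), while its other 2 probes differed by 0.01 and 0.10. Rps6ka5, which encodes the kinase MSK1 that phosphorylates CREB and histone H3 at immediate early genes, fell from 1100.3, 1405 and 1451 to 181, 434 and 321 (log2 -2.16, SE 0.35, adjusted p = 0.0335). Serum response factor itself (Srf) differed by 0.31 (adjusted p = 0.407), and the c-JUN kinases Mapk8 and Mapk9 by 0.35 (adjusted p = 0.595) and -0.95 (adjusted p = 0.183). Other tested probes of these genes differed by 0.50 (Srf), -0.69 and 0.58 (Mapk8) and -0.16 (Mapk9). With experiments as blocks 4 genes were called, 2 higher and 2 lower, against 13.9% of all genes.

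The next list held genes around AP-1 mRNA stability, ubiquitination or corepression, and with Elavl1 and Cops5 it was not confined to genes that limit AP-1. All 15 listed were tested by limma, 0 rose (against 1.99% of all genes) and 2 fell (against 3.18%), and their median was 0.07. At an unadjusted p under 0.05, 1 was higher and 2 were lower of the 15, against 2722 and 2780 of 22078 genes. With experiments as blocks 4 were called, against 13.9%. Itch, a ubiquitin ligase for c-JUN and JUNB, fell from 15357, 13494 and 11586 to 4588, 6916 and 4828 (log2 -1.32, SE 0.23, adjusted p = 0.0362). Hdac3, a corepressor deacetylase recruited by unphosphorylated c-JUN, fell from 5586, 5184 and 5327 to 3399, 2986 and 3014 (log2 -0.78, SE 0.15, adjusted p = 0.0472). The ligase gene Fbxw7, also for c-JUN, differed by -0.01 (adjusted p = 0.993), and Zfp36, which destabilizes Fos mRNA, by 0.53 at a low signal (adjusted p = 0.484). The blocked fit added Pdcd4 and Trib1, both higher.

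Known AP-1 target genes rose where they were called, and these encode secreted proteins of matrix breakdown and adhesion. Of 45 listed, 43 were on the array and 40 tested. By limma's adjusted p, 4 rose (10% against 1.99% of all genes) and 0 fell (against 3.18%), and the median was 0.45 against 0.06. This list, like the others around AP-1, was chosen with earlier results of these data known, so nothing is read from its counts as a test. Mmp10 and Mmp3 reached the signal of 50 needed for testing only with GapmeR Ntep, with control means of 24.5 and 24.9. At an unadjusted p under 0.05 the counts were 8 higher and 2 lower of the 40, against 2722 higher and 2780 lower of 22078 genes. Mmp10, a stromelysin, read 2865, 735 and 539 with GapmeR Ntep and was not well above background on any control array, so that it was at least 20.8-fold higher on these signals (adjusted p = 0.0234). The bound rested in part on GapmeR Ntep array 1 and was 12.6-fold without it, and under normexp, which adds an offset of 50 to every signal, the fitted log2 difference was 2.90. Mmp3, the related stromelysin, read 983, 133 and 237 and was likewise not well above background in control, at least 6.28-fold higher (adjusted p = 0.0475). That bound was 3.55-fold without GapmeR Ntep array 1 and 9.64-fold without GapmeR Ntep array 2, and the log2 difference under normexp was 1.51. Plau, the urokinase, read 447, 156 and 232 against 60.6, 49.7 and 42.5 (log2 2.33, SE 0.41, adjusted p = 0.0363), with 1 of the 3 control arrays well above background. Spp1, the matrix protein osteopontin, was the most even, with 7883, 6674 and 7764 against 1951, 1605 and 1513 (log2 2.14, SE 0.18, adjusted p = 0.0157). Higher in each experiment were 25 of the 40 target genes and lower in each were 5. Of all 22078 genes, 7137 (32.3%) were higher and 5940 were lower in each. With experiments as blocks 8 were called, 7 higher (adding Cd44, Il11 and Ereg) and Lox lower, against 13.9% of all genes. Other standard targets did not pass, among them Ccnd1 (log2 0.13, adjusted p = 0.800), Myc (0.22, 0.540), Il6 (-0.87, 0.479) and Ccl2 (-0.62, 0.162). Nor did all listed genes of matrix breakdown rise. Mmp13 was higher in each experiment without passing (1.80, 0.186), and Mmp14 differed by 0.12 (0.880). Mmp9 and Mmp12 were too dim to be tested, and Mmp9 read lower in each experiment (-1.25). Krt18 and Vim of this list also stand among the epithelial and fibroblast markers.

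**Figure D5:**
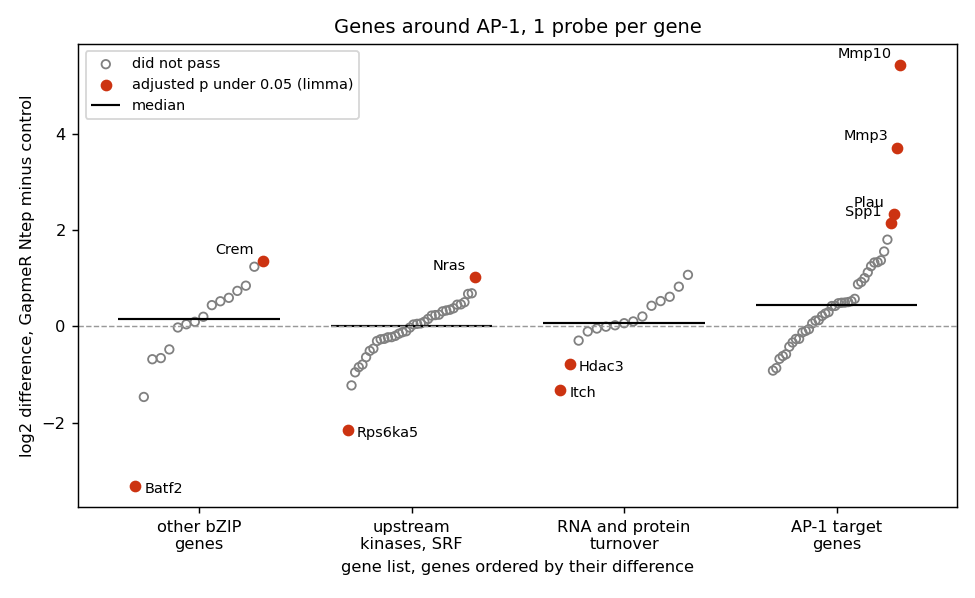
Log2 difference of each tested gene in the 4 lists around AP-1, by its brightest probe and ordered within a list, with genes past limma's adjusted p in red and the list median as a line. Mmp10, Mmp3, Plau and Spp1 stand at the top of the targets, and Batf2 lies lowest of all listed genes.

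Each of these 10 calls in the 4 lists was lost in some of the fits without 1 array, and how many were lost differed with the array left out. All 10 lost their call when control array 2 was left out (adjusted p 0.112 to 0.182), when control array 3 was left out (0.0799 to 0.181) or when GapmeR Ntep array 3 was left out (0.0786 to 0.152). Without control array 1, Spp1 alone kept it (0.0447), without GapmeR Ntep array 1 Crem, Hdac3, Itch and Nras lost it (0.0736 to 0.0863), and without GapmeR Ntep array 2 Hdac3 (0.0773) and Nras (0.0555) did. The other background correction, normexp, which also lets every probe into the test, ended the calls of Mmp3 (0.163) and Plau (0.0746), and with the tested probes kept as they were the values were 0.105 and 0.0546. Testing every probe on the main signals, or the methods' t-test, each ended 8 of the 10 (adjusted p 0.0633 to 0.145 and 0.0678 to 0.127), and Hdac3 and Spp1 alone kept theirs. For Plau the log2 difference was 1.08 under normexp. Scaling by the 75th percentile ended the calls of Crem (0.0521, and 0.0501 with a floor of 5), Hdac3 (0.0784), Mmp3 (0.0510) and Nras (0.0589). Directions did not change in any of the fits without an array.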

How the data were processed

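Cells were 3T3 treated for 48 h with 50 nM GapmeR Ntep or GapmeR control (3 arrays each). The authors extracted intensities with Agilent Feature Extraction 10.7.3.1 (per the labels' processing notes) and deposited, for each array, background-subtracted intensities of every spot on a linear scale before any scaling across arrays. Their own quantile normalized intensities were deposited too and served as an alternative. Probe positions are those of mm9 in the files. Exon and UTR positions were not analysed here.

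Signals were averaged over the spots of a probe, quantile normalized, raised to 20 where lower, and fitted on the log2 scale with limma 3.58.1 (R 4.3.3, package data.table at version 1.17.8). A probe entered the test if the group with the higher mean reached 50 (30990 probes). A call is a Benjamini-Hochberg adjusted p under 0.05 over all tested probes, and a second rule is a fold change of at least 2 with an unadjusted p under 0.01. All p-values are two-sided. In gene lists the probe with the highest mean stood for a gene. The members and gene lists were chosen with earlier results of these data known. Named were all members, at most 6 called genes of each list, and for Fos, Fosb, Fosl1 and Jun the 3 probes with the highest Pearson r. Uncalled genes of the lists were named beside these without a fixed rule. The steps were tested on simulated data.

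The numbers pair the arrays by experiment, per the study's documentation. As a check, the residual correlation was 0.466, 0.300 and 0.254 within experiments 1, 2 and 3, while across experiments it lay between -0.327 and 0.126. The main fit had no block, as in the study's unpaired test, and a fit with experiments as blocks was run beside it. Alternatives were other scalings, background corrections, floors and filters, the authors' normalized intensities, removal of outlying spots, a trended prior, the methods' t-test and the omission of each array. The median of spots, and normexp with the main filter, were added after seeing the data. The number of arrays limits the precision.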

Additional observations from a re-analysis of the deposited data

How the results depend on the processing

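No alternative reversed a log2 difference of a member, and the block cannot move one in this balanced design. Fos fell from 1.67 to 0.43 with outlying spots left out, the median of spots or the authors' normalized values, a move smaller than its spread between replicates, which itself holds that spot. Fosb fell from 2.46 to 1.82 under normexp, with or without the main filter. Without each array in turn the log2 difference of Fos ranged from 0.51 to 2.32, Fosb 2.26 to 2.74, Fosl1 2.24 to 3.34, the bright Fosl2 probe 0.49 to 1.57, the dim one 0.23 to 0.63, Jun 1.73 to 2.15, Junb 0.16 to 0.49, Jund 0.36 to 0.64, Batf3 0.48 to 0.74, Jdp2 0.20 to 0.74 and Maff 1.52 to 2.51. Scaling by the 75th percentile moved the median of all tested probes by 0.16. The counts of calls were less stable than the differences.

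Of the 2 member probes called (Fosb and Jun), 0 were called without a filter (6 at an unadjusted p under 0.05) or with the methods' t-test (5), and 4 with experiments as blocks. Leaving out an array gave 0 to 2, with 0 without control array 1, 2 or 3 or GapmeR Ntep array 3 and 1 (Fosb) without GapmeR Ntep array 1, and 3 to 6 at an unadjusted p under 0.05. Over all tested probes, 1642 calls (647 higher, 995 lower) became 564 without a filter (292 and 272), 2884 among probes well above background, 4292 with experiments as blocks (2026 and 2266), 285 with the methods' t-test (147 and 138), 2707 with a trended prior and 2557 under normexp with the main filter. Leaving out an array gave 0 to 1403, with 5072 and 6116 probes at an unadjusted p under 0.05 in the fits at 0 (without control array 2 or GapmeR Ntep array 3). By fold and unadjusted p, 2520 became 1457 with the t-test and 1583 to 3163 without an array.

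The calls by list were 2 for other bZIP genes, 2 upstream, 2 turnover and 4 target genes. With experiments as blocks they were 4, 4, 4 and 8, and without a filter or with the t-test 1 in each list. In both of the latter fits the bZIP gene called was neither Batf2 nor Crem, and the upstream gene neither Nras nor Rps6ka5. Scaling by the 75th percentile left 1 of the first 3 lists each, a floor of 5 left 1 bZIP gene, and normexp, with or without the main filter, gave 5 upstream and 2 target genes. A trended prior gave 4 bZIP and 4 upstream genes, and probes well above background 5 upstream genes. Without an array the counts were 0 to 2, 0 to 1, 0 to 1 and 0 to 4. A left-out array lowers the sample number by construction, and the cause of the other shifts was not tested.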

Other observations

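Spots as far out as that of Fos were rare on these arrays. The array prints 399 probes with 10 spots each, and of 2394 pairs of such a probe and an array, 53 had a spot over 10 times the median of its 10 spots and 4 a spot over 100 times it. Of these 4, 3 lay on GapmeR Ntep array 1 and 1 on GapmeR Ntep array 3. All members other than Fos are read from 1 spot per array, so no value within an array bears on theirs.

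Probes of the same gene did not always move together around AP-1. The brightest probe of Araf, a kinase upstream of ERK, differed by 0.04 (log2), while another probe of the gene fell by 2.42 on the log2 scale (adjusted p = 0.0339). Vegfa, an AP-1 target, differed by 0.88 at its brightest probe and by 1.96 at another (adjusted p = 0.0433). Atf2 differed by -0.02 at its brightest probe and by 0.41 to 1.64 at its other 3 (adjusted p 0.0665 to 0.410). These probes were picked after their values were seen.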
